A study of Mus musculus with 17 samples.

Results

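The genes described here encode the axoneme, the microtubule skeleton that moves a motile cilium. They were taken from a gene count table of mouse lung as the protein-coding rows that had a total of at least 50 counts and a symbol from the axonemal dynein (Dnah, Dnaic, Dnali1), dynein assembly factor (Dnaaf), radial spoke (Rsph), cilia and flagella associated (Cfap), tektin (Tekt) or nexin-dynein regulatory complex (Drc) families, or were Ccdc39, Ccdc40, Ak7, Spag6, Spag6l, Spag16 or Spag17. 77 of the 31245 genes in the table met this rule, out of 81 whose symbol matched. The antisense genes Dnah2os and Spag17os and the protein-coding Cfap97d1 and Rsph6a, with totals of 10 and 17 counts, were left out. Testing covered the 26946 genes whose counts summed to 20 or more over all libraries, and the members' own minimum ensured that all 77 were among them.

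Lungs came from mice with their own PPARα (WT), mice without it (PPARα KO, here KO) and mice with the human receptor in its place (hPPARα KI, here KI), which drank water with perfluorooctanoic acid (PFOA) at 6.2 µg/mL, or vehicle, for 14 weeks from 6 weeks of age, all on a custom diet. WT mice were bought as Sv/129, whereas KO and KI mice were bred from pairs that carried the mouse null allele and the human gene, so breeding origin and the receptor cannot be told apart between WT and the other genotypes. The groups held 2 libraries (WT vehicle) or 3 libraries each (WT PFOA, KO vehicle, KO PFOA, KI vehicle, KI PFOA), 1 animal a library, and libraries are named here by animal number. All KO mice were female, and the WT and KI groups held both sexes. The promoter that drives the human receptor was not given in the sources used here.

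Motile cilia cover the multiciliated cells of the conducting airways, where their beat clears mucus. Each axoneme is a ring of microtubule doublets around a central pair: outer and inner dynein arms slide neighbouring doublets, nexin links turn sliding into bending, radial spokes carry signals from the central pair to the arms, and tektins and other microtubule inner proteins brace the doublet wall from within. The cells switch on the genes for these parts together as they make cilia, through transcription factors of the RFX family, which bind the X-box, and FOXJ1.

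The promoters of these genes are shown first, because some members held letters like the X-box there, which the rule for choosing them did not use. The 300 bases from 250 before to 50 after the annotated start were available from RefSeq (GRCm38.p6, the mm10 assembly of the counts) for 65 of the 77 members. An X-box-like pattern (GT, any 2 bases, CC, any 2 bases, GG, any 2 bases, AC), searched on both strands, was found at 8 of the 65 genes (12.3%) and at 2.16% of all 27025 genes in the same reference. The shorter GTTGCC was found at 26 members (40.0%) against 14.1% of all genes, and the forkhead-like TGTTTAC at 5 (7.7%) against 4.05%. 2 of the 8 X-box-like matches also held GTTGCC. The 6 matches that lay wholly before a RefSeq start are printed 5′ to 3′ along the gene's strand, with up to 20 bases on each side and the pattern in capitals.
Cfap126: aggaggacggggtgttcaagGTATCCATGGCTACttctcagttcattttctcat
Cfap206: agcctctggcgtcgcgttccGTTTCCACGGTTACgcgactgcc
Cfap298: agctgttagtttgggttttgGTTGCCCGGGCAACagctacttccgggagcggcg
Cfap77: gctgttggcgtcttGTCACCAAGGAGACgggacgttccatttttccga
Dnaaf5: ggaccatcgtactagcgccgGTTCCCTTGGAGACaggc
Tekt4: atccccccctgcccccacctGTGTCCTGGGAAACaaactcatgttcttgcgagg
These lay on chr1:171122943-171122996 (plus strand), chr4:34730207-34730249 (minus), chr16:90935004-90935057 (minus), chr2:29055269-29055316 (minus), chr5:139150197-139150234 (plus) and chr17:25471410-25471463 (plus), and the pattern began 82, 23, 188, 236, 18 and 160 bases before that RefSeq start. By the gene positions of the count table, the patterns at Cfap126, Cfap298 and Tekt4 began 9045, 77 and 16815 bases inside the gene, so the RefSeq start used there is an internal one, and the other 3 began before the gene. The printed genes code for the microtubule inner protein Cfap126, the radial spoke protein Cfap206, the assembly factors Cfap298 and Dnaaf5, the ciliary protein Cfap77 and the tektin Tekt4. The other 2 matches, at Rsph9 and Spag6l, reached or passed the RefSeq start. A match is a likeness of letters and not a measured binding site. The median log2 fold change on PFOA in WT lungs was -0.91 for the 8 members with the X-box-like pattern and -0.96 for the 57 without it, with library 122 included.

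Library totals were 4116116 to 9237385 counts (median 7524817), so that 3 counts were worth 0.325 to 0.729 CPM (counts scaled to library size, with TMM factors throughout). Library 122 of WT vehicle and library 137 of KO vehicle stood apart from the others before any comparison. Protein-coding genes took 65.31% and 61.28% of their counts against 74.45% to 80.36% elsewhere, and ribosomal RNA 16.89% and 20.28% against 6.73% to 12.28%. For medians and most named genes in WT and KO lungs, the value without these 2 libraries is given as well, and the 15 other libraries are called the reduced set. Ppara itself was at 6.13 and 7.21 CPM in WT vehicle, 11.7, 10.3 and 9.17 in KO vehicle and 15.3, 15.3 and 12.7 in KI vehicle lungs. Counts over the whole gene do not show which exons were read, so they do not check the knockout.

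The axoneme genes were measured in all 6 groups. Mean levels ran from 0.56 CPM for Tekt3 to 134 CPM for the outer arm heavy chain Dnah5, and 75 of the 77 members averaged at least 1 CPM. Per kilobase of exon, levels ran from 0.178 CPM per kb for Dnah14 to 21.7 CPM per kb for Cfap298, with a median of 4.16. Foxj1, the defining regulator of motile ciliated cells and no member, was at 19.6 to 69.9 CPM over the 17 libraries. None of 6 sperm markers was among the genes tested. The members are spread over 19 chromosomes, with 10 on chromosome 11 and 9 on chromosome 1.

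Members varied together from library to library. The coefficient of variation of a member over the 17 libraries had a median of 41.6%, and of 18.6% once each member was divided by the summed level of the others in its library. Dividing made the coefficient smaller for 67 of the 77 members. Dnah9, a heavy chain of the outer arm, went from 34.9% to 6.3%, and Cfap206, of the radial spoke base, from 36.1% to 8.3%. In bulk lung, fewer ciliated cells and less RNA per ciliated cell cannot be told apart.

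The summed level of the 77 members set the same libraries apart. It was 1787 and 3976 CPM in WT vehicle libraries 107 and 122 and 1359, 1397 and 1813 CPM in WT PFOA libraries 50, 56 and 65. It was 3797, 1885 and 1998 CPM in KO vehicle libraries 137, 145 and 149, and 1836, 1618 and 1888 CPM in KO PFOA libraries 52, 154 and 155. It was 2446, 2550 and 2793 CPM in KI vehicle libraries 102, 116 and 135, and 2037, 1681 and 3091 CPM in KI PFOA libraries 57, 80 and 139. Libraries 122, 137 and 139 were each the high one of their group, and apart from them the vehicle and PFOA sums came within each other's range in WT and KO lungs but not in KI lungs. Of the 77 members, 42 had their highest level in library 122 and 28 in library 137, against 14.3% and 25.7% of all genes tested. In WT PFOA libraries 50 and 56, 26 and 17 members had their lowest level, against 4.91% and 5.47% of all genes tested.

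**Figure D1:**
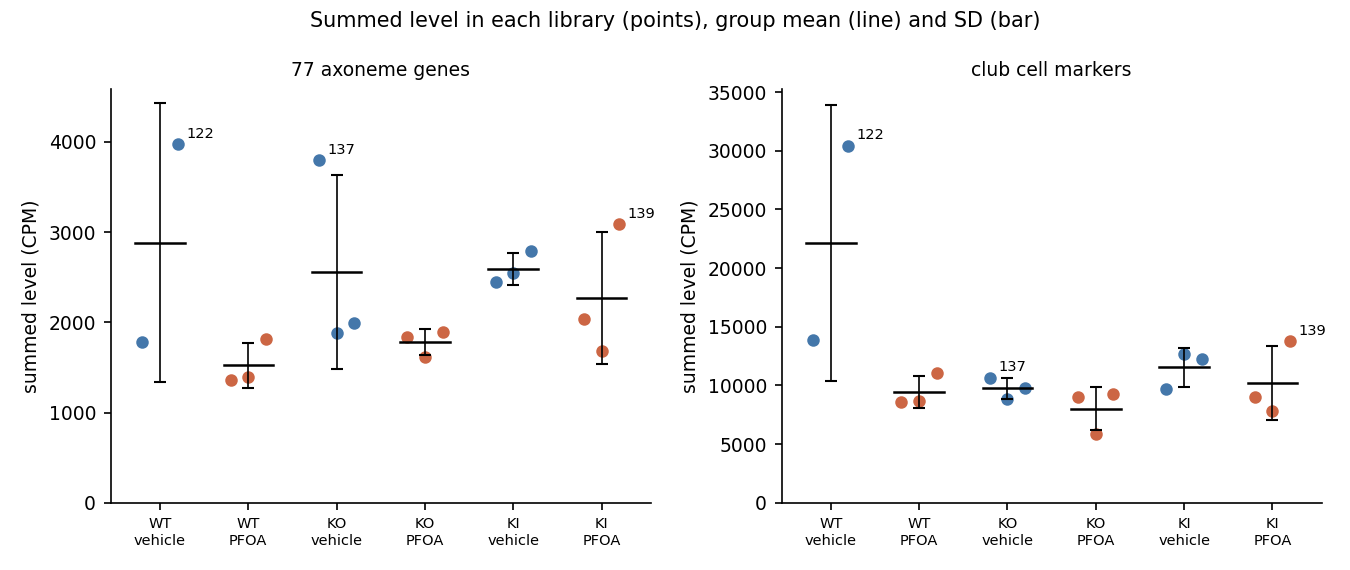
Summed level in CPM (y axis) of the 77 axoneme genes (left) and of 12 club cell marker genes (right) in each library (points, blue vehicle and red PFOA) by genotype and treatment (x axis), with group means (lines) and SDs (bars, n = 2 or 3). Library 122 is high in both panels at 3976 and 30430 CPM, whereas library 137 is high in the axoneme panel at 3797 CPM and within the range of the other groups in the club cell panel at 10660 CPM.

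The 2 high vehicle libraries differed in what moved with the axoneme. In library 122 the median member was at 2.20 times its level in library 107, the 12 ciliated cell markers outside the rule summed to 1000 against 594 CPM, and the 12 club cell markers to 30430 against 13850 CPM. In library 137 the median member was at 1.90 times the mean of libraries 145 and 149, while the ciliated cell markers summed to 656 against 509 and 558 CPM and the club cell markers to 10660 against 8869 and 9806 CPM. Alveolar type 1 markers summed to 1491 CPM in library 122 and 889 CPM in library 137, below the 1579 to 2596 CPM of the others, and endothelial markers to 1393 and 969 CPM against 2036 to 2614 CPM. By exon length, the ratio in library 137 had a median of 1.96 for the 38 members above the median exon length of 4.12 kb and of 1.73 for the 39 others, and in library 122 of 2.18 and 2.25. The part of library composition in the members' levels was not tested.

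The comparison of PFOA with vehicle in WT lungs asked whether the chemical changed these genes where the mouse receptor was intact. 74 of the 77 members had a lower level on PFOA, with a median log2 fold change of -0.935 against 0.04 over all genes tested. None of them passed the threshold (a fold over 2 and an edgeR quasi-likelihood p, adjusted by Benjamini-Hochberg over the 26946 genes, under 0.2), as none of all genes did (0.0% called). A lower level was found for 46.1% of all genes. At an unadjusted p under 0.05, 51 members were lower and 0 higher, against 4.23% and 3.12% of all genes. DESeq2 on the same genes also called 0 members (0.0891% of all genes), and with its own filters it called 10 of the 70 members it tested, all lower (0.496% of all genes it tested). The 5 libraries did not overlap, with PFOA lower, for 38 members, against 10.9% of all genes.

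This difference depended on library 122. Without it, the median log2 fold change in WT lungs was -0.25, 59 of 77 members were lower, and 0 had an unadjusted p under 0.05 (edgeR). Without the other WT vehicle library, 107, the median was -1.41 and 53 members passed the threshold, all lower (2.88% of all genes in that fit). With either left out, the lone vehicle library is assumed to vary like the other groups. Library 122 came from a male and library 107 from a female, so sex and library cannot be told apart between them. With the protein-coding share of each library as a covariate the median was -0.37.

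By role in the cilium, the outer dynein arm came first. Its heavy chains are the motors that set beat frequency. Dnah5 (ENSMUSG00000022262, chromosome 15, 28203752 to 28472052) is the core motor of the arm along the whole cilium. In WT lungs it was at 100.699 and 218 CPM on vehicle and at 58.5, 63.008 and 112 CPM on PFOA (log2 fold change -1.03, standard error 0.34, adjusted p = 0.511, edgeR, and -0.37 in the reduced set). Library 122 was high and PFOA library 65 lay above vehicle library 107, so the groups overlapped. Dnah9 (ENSMUSG00000056752, chromosome 11, 65831282 to 66168551), which joins Dnah5 in the outer part of the cilium, was at 74.2 and 170.3 CPM on vehicle and 57.9, 58.3 and 73.9 CPM on PFOA in WT lungs (log2 fold change -0.94, standard error 0.30, adjusted p = 0.502, edgeR, and -0.22 in the reduced set). Here vehicle library 107 lay just above PFOA library 65. Dnah11, the partner of Dnah5 near the cilium base, had a log2 fold change of -0.70 (adjusted p = 0.656, edgeR). In the reduced set it was -0.09. Dnah8 and Dnah17, counterparts best known from sperm, were at 0.08 and 0.39, and in the reduced set at 0.57 and 0.11.

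The intermediate chains Dnaic1 and Dnaic2 hold the arm to the doublet. Dnali1, a light intermediate chain, is grouped with them here. All 3 were lower on PFOA in WT lungs with no overlap between libraries, at -1.12 for Dnaic1, -1.34 for Dnaic2 and -1.07 for Dnali1, and without libraries 122 and 137 at -0.38, -0.52 and -0.35. Dnaic2, which anchors the outer arm, was at 15.9 and 40.1 CPM on vehicle and 7.22, 11.7 and 14.1 CPM on PFOA. DESeq2 with its own filters called it (adjusted p = 0.188), and edgeR did not (adjusted p = 0.474).

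Inner arm heavy chains shape the waveform of the beat. All 10 were lower in WT lungs on PFOA, with a median log2 fold change of -0.93 (-0.30 in the reduced set), and 6 had an unadjusted p under 0.05 (edgeR). Dnah6 was at 101.099 and 219 CPM on vehicle and 67.3, 73.8 and 92.9 CPM on PFOA (log2 fold change -1.04, standard error 0.30, adjusted p = 0.479, edgeR, and -0.37 in the reduced set), with every vehicle library above every PFOA library. Dnah12 was at 82.7 and 214 CPM on vehicle and 56.5, 63.008 and 85.7 CPM on PFOA (log2 fold change -1.11, and -0.27 in the reduced set), and there PFOA library 65 lay above vehicle library 107. Dnah7b had a log2 fold change of -0.98 (-0.51 in the reduced set), but Dnah7a, Dnah7b and Dnah7c are paralogs, among which the authors' counting could have split reads.

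The dynein assembly factors, which fold and load the arms in the cytoplasm, had a median of -0.39 (-0.21 in the reduced set). Dnaaf1 was at -0.94, Dnaaf3 at -0.23 and Dnaaf5 at -0.15, all with an adjusted p of at least 0.601 (edgeR), and in the reduced set they were at -0.54, 0.45 and 0.10. Dnaaf4 had the lowest value among the 75 members with a mean of at least 1 CPM, -1.98 with a standard error of 0.73 (-1.07 in the reduced set). Its levels of 3.596 and 9.99 CPM on vehicle and 2.41, 0.585 and 2.06 CPM on PFOA included 1 library with few counts.

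Radial spokes pass signals from the central pair to the dynein arms. All 9 spoke genes were lower on PFOA in WT lungs (median -0.86, and -0.28 in the reduced set), 6 of them at an unadjusted p under 0.05 (edgeR). Rsph1 (ENSMUSG00000024033, chromosome 17, 31255019 to 31277383), a spoke head protein, was at 9.99 and 19.5 CPM on vehicle and 4.82, 4.82 and 7.45 CPM on PFOA (log2 fold change -1.36, standard error 0.38, adjusted p = 0.462, edgeR, and -0.80 in the reduced set). Rsph4a, another head protein, was at 32.2 and 89.1 CPM on vehicle and 20.021, 19.6 and 29.042 CPM on PFOA (log2 fold change -1.40, standard error 0.35, adjusted p = 0.456, edgeR, and -0.49 in the reduced set). Both were higher in each vehicle library than in any PFOA library, and DESeq2 with its own filters called both (adjusted p = 0.1995 and 0.131). Rsph9 was at 6.79 and 28.5 CPM on vehicle and 8.62, 7.31 and 8.87 CPM on PFOA, with vehicle library 107 below every PFOA library. Its log2 fold change was -1.08 with library 122 and 0.29 without it.

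The nexin-dynein regulatory complex links doublets, and Ccdc39 and Ccdc40 form the ruler that sets the repeat of spokes and inner arms. All 5 genes of these kinds had an unadjusted p under 0.05 in WT lungs (edgeR), with a median of -1.17 (-0.36 in the reduced set). Ccdc40 (ENSMUSG00000039963, chromosome 11, 119228572 to 119265238) was at 44.2 and 129 CPM on vehicle and 28.1, 33.6 and 41.0 CPM on PFOA (log2 fold change -1.33, standard error 0.35, adjusted p = 0.456, edgeR, and -0.36 in the reduced set). Its partner Ccdc39 was at 30.5 and 90.7 CPM on vehicle and 23.3, 26.2 and 35.3 CPM on PFOA (log2 fold change -1.09, and -0.10 in the reduced set). The Ccdc40 groups did not overlap, and the Ccdc39 groups did. Drc1 was at -1.26 and Drc3 at -1.17, and Cfap43 and Cfap44, which tether an inner arm to the doublet, at -1.16 and -1.02. Without libraries 122 and 137 these 4 genes were at -0.21, -0.54, -0.21 and -0.28.

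The central pair apparatus steers the spokes. All 14 genes grouped with it here, Cfap57 among them, were lower on PFOA in WT lungs (median -0.92, and -0.24 in the reduced set). Of these, 11 had an unadjusted p under 0.05 (edgeR). Spag6l was at 21.978 and 44.4 CPM on vehicle and 12.8, 8.62 and 15.2 CPM on PFOA (log2 fold change -1.43, standard error 0.36, adjusted p = 0.456, edgeR, and -0.84 in the reduced set), with no overlap. Its paralog Spag6 was near the floor, and reads of the pair could have been split. Spag16 was at 9.59 and 39.1 CPM on vehicle and 7.22, 7.89 and 10.8 CPM on PFOA (log2 fold change -1.48, and -0.15 in the reduced set), where vehicle library 107 lay between the PFOA libraries and library 122 was far above them. Spag17 was at -1.02 and Cfap54 at -0.88, and without libraries 122 and 137 at -0.44 and -0.18.

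Tektins and other microtubule inner proteins line the inside of the doublets. Tekt4 (ENSMUSG00000024175, chromosome 17, 25454615 to 25476602) was at 7.73 and 19.8 CPM on vehicle and 3.93, 3.36 and 5.91 CPM on PFOA in WT lungs (log2 fold change -1.63, standard error 0.39, adjusted p = 0.456, edgeR, and -0.80 in the reduced set). Cfap52 (ENSMUSG00000020904, chromosome 11, 67924806 to 67965651), of the inner junction, was at 12.1 and 28.3 CPM on vehicle and 3.93, 6.29 and 10.2 CPM on PFOA (log2 fold change -1.56, standard error 0.41, adjusted p = 0.456, edgeR, and -0.83 in the reduced set). Both were higher in each vehicle library than in any PFOA library, and in the reduced set both had an adjusted p of 1.0 (edgeR). Tekt2 and Cfap53, of the same doublet wall, were at -1.04 and -1.41, and in the reduced set at -0.15 and -0.22. Tekt5 was at -0.046 (0.69 in the reduced set), and Tekt3 had 0 counts in both WT vehicle libraries and at most 1.03 CPM in WT PFOA libraries, so no fold is given. Ak7 (ENSMUSG00000041323, chromosome 12, 105705976 to 105782447), an adenylate kinase of motile cilia, was at 37.0 and 92.5 CPM on vehicle and 23.7, 24.1 and 32.6 CPM on PFOA (log2 fold change -1.27, standard error 0.34, adjusted p = 0.456, edgeR, and -0.46 in the reduced set). The study singled out Ak7 on these same samples and listed Ccdc40, Cfap52, Drc3, Rsph4a, Spag6l and Tekt4 from them too. The direction of these genes is therefore not independent evidence. The study also named Ccdc40 among genes whose pass it called artifactual, with weak support, because few vehicle lungs were available. Cfap36, Cfap97 and Cfap410, which are expressed beyond ciliated cells, were at -0.39, -0.09 and -0.19, and in the reduced set at -0.10, -0.25 and 0.06.

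**Figure D2:**
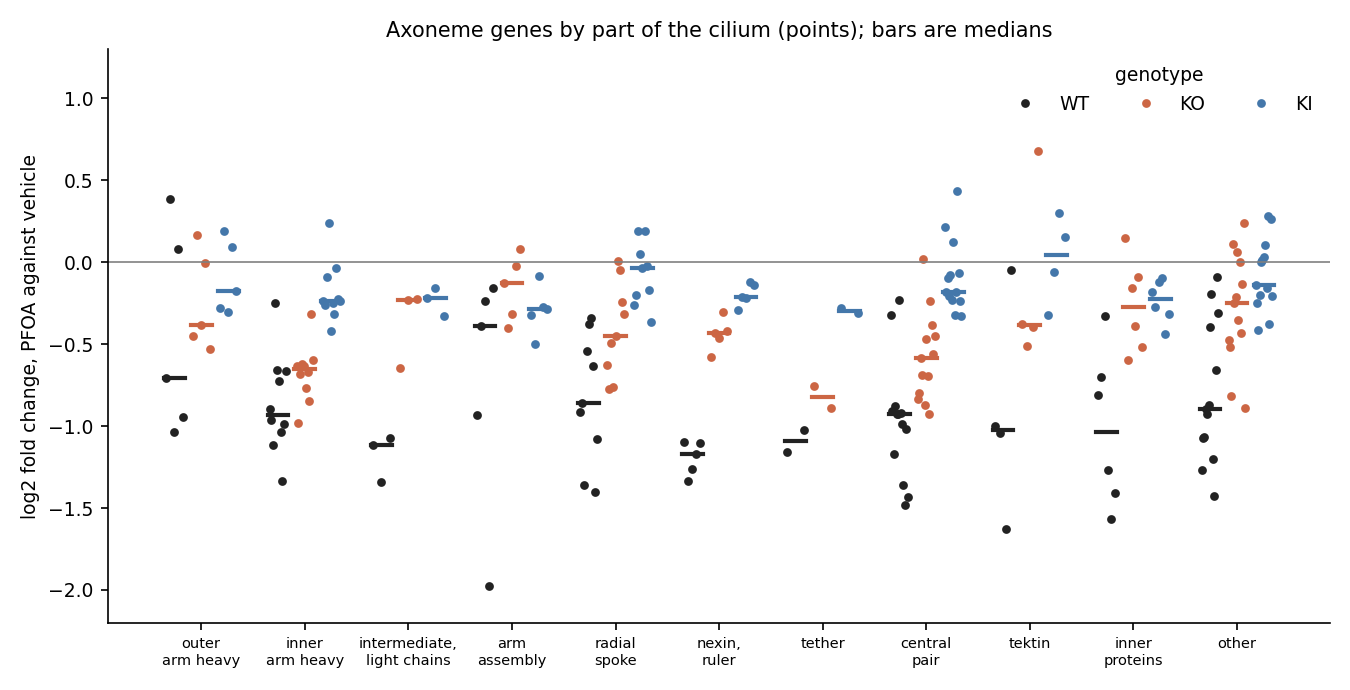
Log2 fold change of PFOA against vehicle (y axis) for each of the 75 axoneme genes with a mean of at least 1 CPM (points) by role (x axis) in WT (black), KO (red) and KI (blue) lungs, with medians as bars. The WT medians lie between -1.17 (nexin and ruler) and -0.39 (arm assembly) with library 122 included, and the KI points lie on both sides of 0.

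Genes of the cilium outside the rule gave like values in WT lungs, though none passed the threshold. The study had listed some of them, such as Foxj1 and Mlf1, from these same samples, so they are not independent evidence. 38 of 40 other axoneme and ciliary genes were lower on PFOA (median -0.97, 27 at an unadjusted p under 0.05, edgeR), as were 11 of 11 tested docking and assembly genes (median -0.91, 7), 13 of 15 genes of the multiciliated transcription program (median -0.58, 6) and 12 of 12 ciliated cell markers (median -1.03, 10). Without libraries 122 and 137 these medians were -0.22, -0.19, -0.37 and -0.38. Foxj1 was at 28.6 and 69.9 CPM in WT vehicle and 21.7, 19.6 and 23.003 CPM in WT PFOA lungs (log2 fold change -1.20, adjusted p = 0.456, edgeR, and -0.41 in the reduced set), with the vehicle libraries above the PFOA libraries.

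Markers of some other cell types were also lower on PFOA in WT lungs, with none past the threshold. The study had listed the club cell markers Scgb1a1, Cyp2f2, Aldh1a7, Hp and Bpifa1 and the smooth muscle marker Lmod1 from these samples. These markers are therefore not independent evidence either, and the study called the passes of Hp and Bpifa1 artifactual. Of 12 club cell markers 8 were lower on PFOA (median -1.02), with sums of 13850 and 30430 CPM on vehicle and 8603, 8673 and 11040 CPM on PFOA, and all 7 smooth muscle markers were lower (median -0.75). In the reduced set these medians were -0.25 and -0.405. Scgb1a1, the main club cell secretoglobin, was at 9980 and 21353 CPM on vehicle and 5800, 5653 and 7199 CPM on PFOA. The 5 neuroendocrine markers had a median of -0.88 (-0.09 in the reduced set), whereas medians were 0.23 for 6 alveolar type 1, 0.06 for 8 alveolar type 2, 0.40 for 6 endothelial and 0.44 for 5 leukocyte markers, and in the reduced set -0.05, -0.38, 0.11 and 0.32. Cardiac markers summed to 727 and 433 CPM on vehicle and 329, 523 and 4072 CPM on PFOA, basal markers to 2.26 and 0.983 CPM on vehicle and 2.15, 1.02 and 14.5 CPM on PFOA, and cartilage markers to 0.932 and 0.819 CPM on vehicle and 1.14, 0.292 and 6.42 CPM on PFOA, with library 65 far above the others in each. The part of airway and other tissue content in the members' levels was not tested.

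In KO lungs, which lack the mouse receptor, 67 of the 77 members were lower on PFOA (53.0% of all genes). The median log2 fold change of the 77 members was -0.45 against -0.03 over all genes. None passed the threshold, and none of all genes did (0.0% called). 15 members had an unadjusted p under 0.05 (edgeR), all lower, against 6.06% of all genes for lower and 3.74% for higher values, and 12 were lower with no overlap between libraries, against 5.99% (6.82% for higher). DESeq2 called 0 members on the same genes (0.252% of all). Dnah10, an inner arm heavy chain, was at 160.778, 56.99 and 63.5 CPM on vehicle and 49.0, 50.9 and 41.6 CPM on PFOA (log2 fold change -0.98, standard error 0.32, adjusted p = 0.473, edgeR, and -0.35 in the reduced set). Library 137 was far above the other vehicle libraries, which still lay above the PFOA libraries.

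Cfap74, of the central pair, had a log2 fold change of -0.93 in KO lungs and Cfap97d2, a relative of Cfap97, of -0.89, and in the reduced set -0.47 and 0.39. At the other end were Tekt5 at 0.68, Cfap97 at 0.24 and Dnah17 at 0.17, and in the reduced set 0.84, 0.054 and 0.68. Without library 137 the KO median was -0.09, 0 members were lower and 1 was higher at an unadjusted p under 0.05 (edgeR).

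In KI lungs, where the human receptor replaced the mouse one, 59 of the 77 members were lower on PFOA (48.9% of all genes), with a median log2 fold change of -0.18 against 0.005 over all genes. None passed the threshold (0.0% of all genes did), and 0 members had an unadjusted p under 0.05 (edgeR), against 1.12% of all genes for lower and 1.47% for higher values. DESeq2 called 0 members as well, with either filter (0.00371% of all genes). The libraries did not overlap for 1 member, higher on PFOA, and for 0 lower, against 4.45% and 3.78% of all genes. The lowest values were -0.50 for the assembly factor Dnaaf2, -0.44 for Cfap52 and -0.42 for the inner arm chain Dnah2. The highest were 0.44 for Cfap99, 0.30 for Tekt4 and 0.28 for Cfap73 (all adjusted p = 1.0, edgeR).

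The KI values depended on PFOA library 139. The vehicle libraries were close together, for example at 183.059, 172 and 177 CPM for Dnah5, while the PFOA libraries were at 149.7, 95.1 and 186 CPM. Library 139 was above both other KI PFOA libraries for 68 of 77 members, with a median ratio of 1.66. Its club cell markers summed to 13750 CPM against 8993 and 7860 CPM in the other KI PFOA libraries. Without it the median log2 fold change in KI lungs was -0.50, and 10 members were lower at an unadjusted p under 0.05 (edgeR), none past the threshold. The share of all genes in that fit is not given here, so this count is not read as a result about the members.

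**Figure D3:**
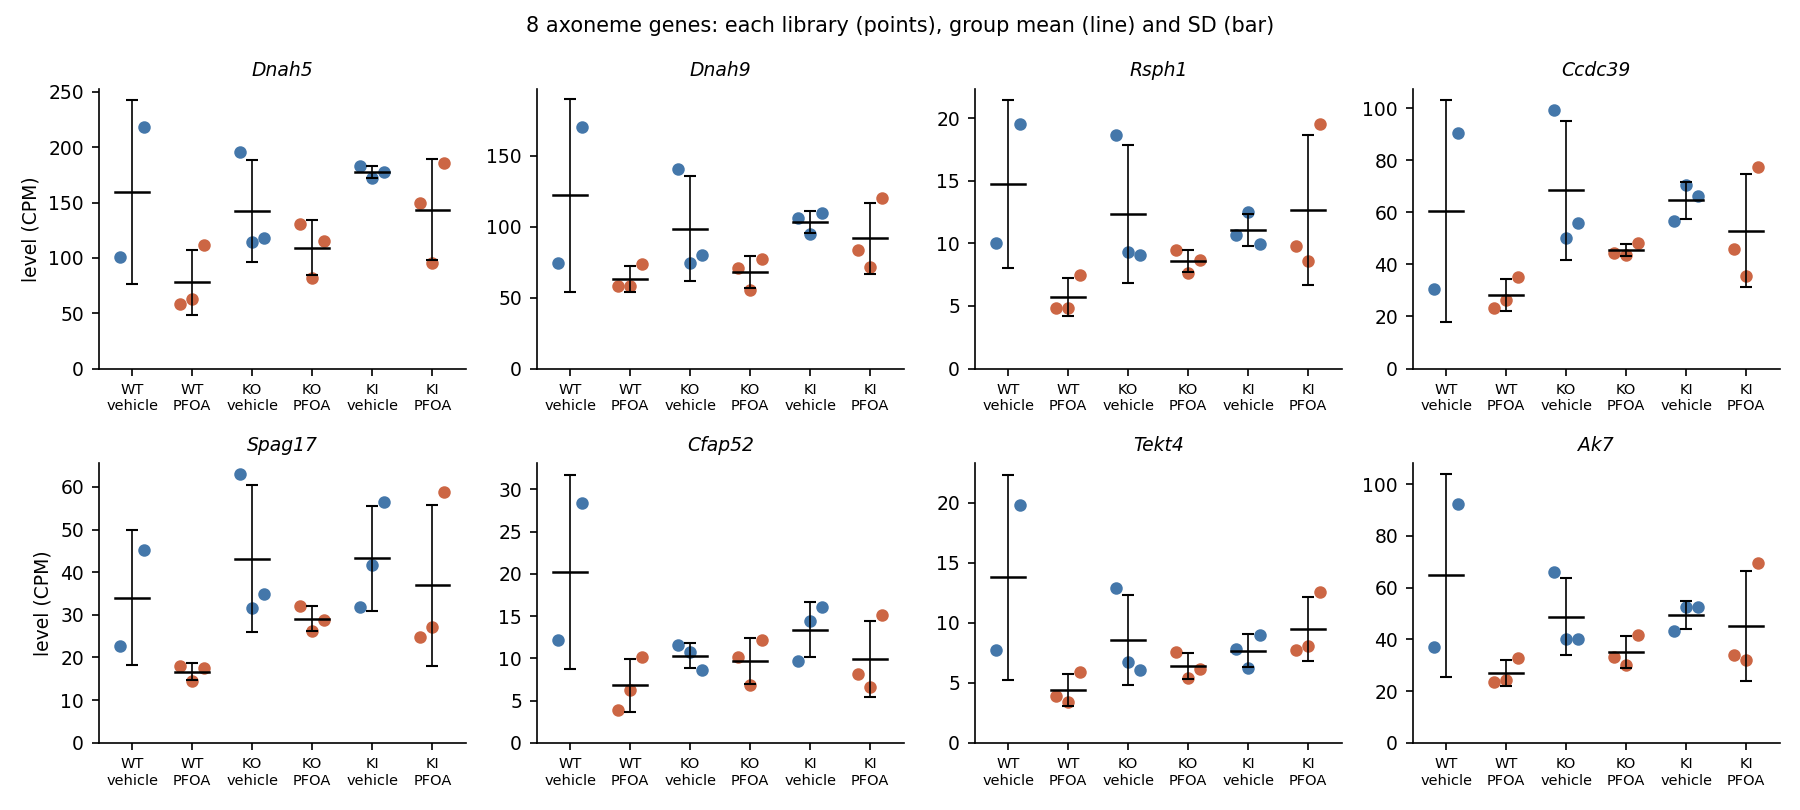
Level in CPM (y axis) of 8 axoneme genes (panels) in each library (points, blue vehicle and red PFOA) by group (x axis), with group means (lines) and SDs (bars, n = 2 or 3). The same libraries are high in most panels: 122 in WT vehicle, 137 in KO vehicle and 139 in KI PFOA, with Cfap52 an exception in KO vehicle, where library 137 is at 11.5 CPM against 10.7 and 8.66 CPM.

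Over the 3 genotypes together, with genotype as a covariate, 72 of 77 members were lower on PFOA (median log2 fold change -0.51 against -0.01 over all genes), and 47 had an unadjusted p under 0.05 (edgeR, 4.47% of all genes lower, 3.8% higher). None passed the threshold (0.0% of all genes did), nor did DESeq2 call a member on the same genes (0.0965% of all). Only 5 members were above 0, against 48.2% of all genes. The lowest were -0.74 for Cfap157, -0.72 for Cfap44 and -0.72 for Dnah10 (adjusted p of 0.436, 0.457 and 0.416, edgeR), and the highest 0.28 for Tekt5, 0.23 for Dnah17 and 0.15 for Cfap97. Without libraries 122 and 137, which leaves 1 WT vehicle library, the median was -0.18.

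**Figure D4:**
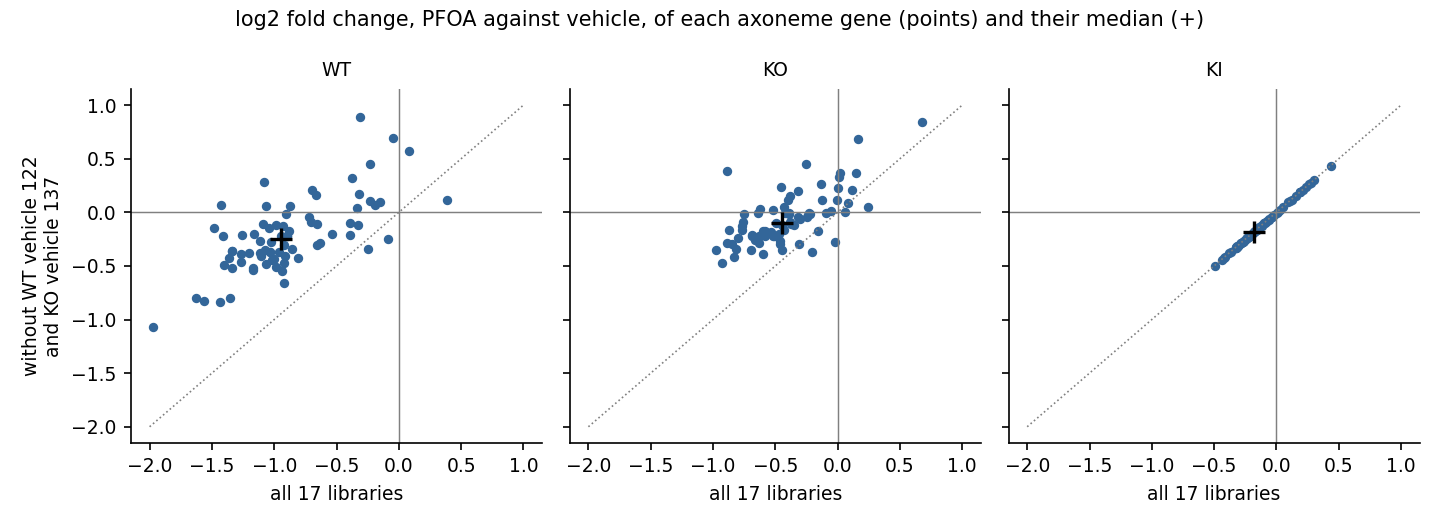
Log2 fold change of PFOA against vehicle for each of 75 axoneme genes (points) and their median (cross) from all 17 libraries (x axis) and without WT vehicle library 122 and KO vehicle library 137 (y axis), in WT, KO and KI lungs. Most WT and KO points lie above the dotted line of equal values, and the KI points lie on it.

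Whether the response to PFOA differed between genotypes was tested as an interaction. The KO response minus the WT response had a median of 0.46 over the members, with 62 of 77 above 0 (47.4% of all genes). At an unadjusted p under 0.05 there were 8 members (edgeR, all higher, 2.56% of all genes higher and 4.89% lower). None passed the threshold (0.0% of all genes). This KO difference was highest for Dnaaf4 (1.95), Cfap52 (1.48) and Tekt4 (1.24) and lowest for Cfap97d2 (-0.58), Cfap221 (-0.51) and Dnah14 (-0.37). These genes had an adjusted p of at least 0.669 (edgeR). The KI response minus the WT response had a median of 0.715, with 73 of 77 above 0 (48.7% of all genes), 16 at an unadjusted p under 0.05 (edgeR, all higher, 2.19% of all genes higher and 2.39% lower) and none past the threshold (0.0% of all genes). It was highest for Tekt4 (1.93), Cfap99 (1.80) and Dnaaf4 (1.70) and lowest for Dnah17 (-0.20), Dnaaf5 (-0.13) and Dnaaf2 (-0.11), with adjusted p of at least 0.999. DESeq2 called 0 members in either (0.0111% and 0.00371% of all genes). Both differences use the same WT libraries, and without libraries 122 and 137 the medians were 0.14 and 0.07. Without library 122 alone the KO difference turned to -0.27.

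Genotypes were also compared within a treatment. KI lungs on PFOA had higher levels than WT lungs on PFOA for 70 of the 77 members (51.4% of all genes). The median log2 fold change of the 77 members was 0.595 against 0.01 over all genes. None passed the threshold, against 0.527% of all genes, while 27 were higher at an unadjusted p under 0.05 (edgeR, 3.28% of all genes) and 1 was lower (2.13%). For 17 members the KI libraries lay above the WT libraries with no overlap, against 6.75% of all genes. These groups hold neither library 122 nor 137, and without them in the fit the median was 0.59 and 6 members passed the threshold, all higher, against 0.623% of all genes in that fit. They were Drc7, Rsph1, Rsph10b, Spag16, Spag17 and Tekt4. DESeq2 on the same genes called 1 member, Spag17 (adjusted p = 0.164), against 0.616% of all genes.

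Spag17 (ENSMUSG00000027867, chromosome 3, 99885406 to 100143322), of the central pair, was at 17.994, 14.5 and 17.6 CPM in WT PFOA and 24.8, 27.2 and 58.7 CPM in KI PFOA lungs (log2 fold change 1.14, standard error 0.33, adjusted p = 0.328, edgeR). Rsph1 was at 4.82, 4.82 and 7.45 CPM in WT PFOA and 9.82, 8.61 and 19.6 CPM in KI PFOA lungs (log2 fold change 1.14, standard error 0.34, adjusted p = 0.385, edgeR). Drc7, of the nexin links, was at 8.997, 7.60 and 12.2 CPM in WT PFOA and 18.6, 14.005 and 32.1 CPM in KI PFOA lungs (log2 fold change 1.16, standard error 0.35, adjusted p = 0.37, edgeR). All 3 genes were higher in each KI library than in any WT library, and library 139 was the highest for each. Cfap299 was at 1.65, 2.19 and 3.598 CPM in WT PFOA and 4.11, 3.598 and 9.22 CPM in KI PFOA lungs (1.17). At the lower end were Dnah8 at -0.88, Tekt5 at -0.24 and Dnaaf2 at -0.19.

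This comparison also depended on single libraries. Without KI PFOA library 139 the median was 0.29, and 4 members were higher and 2 lower at an unadjusted p under 0.05 (edgeR). Shares of all genes in that fit are not given here, so these counts are not read as a result about the members. Without WT PFOA library 50, 56 or 65 the median was 0.52, 0.48 or 0.78, and without KI PFOA library 80 it was 0.80. Ciliated cell markers summed to 419, 459.6 and 532 CPM in WT PFOA and 530.5, 498 and 778 CPM in KI PFOA lungs, and club cell markers to 8603, 8673 and 11040 CPM in WT PFOA and 8993, 7860 and 13750 CPM in KI PFOA lungs, so both marker sums overlapped between the genotypes. Their part in the result was not tested.

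KO lungs were compared with WT lungs on PFOA in the same way. 59 of 77 members were higher in KO than in WT lungs on PFOA (49.7% of all genes), and the members' median was 0.24 against 0.00 over all genes. 2 of them were higher at an unadjusted p under 0.05 (edgeR, 4.5% of all genes). None passed the threshold (1.01% of all genes), and DESeq2 on the same genes called 0 members (1.27% of all genes). With the protein-coding share as a covariate the median was 0.062, and leaving out 1 library at a time it ran from 0.155 without WT PFOA library 50 to 0.424 without WT PFOA library 65. In 10 members the KO libraries lay above the WT libraries, against 9.6% of all genes. The values were highest for Spag17 (0.80), Cfap57 (0.71) and Ccdc39 (0.68) and lowest for Dnah8 (-0.46), Rsph9 (-0.40) and Dnaaf3 (-0.37). Ccdc39 was at 23.3, 26.2 and 35.3 CPM in WT PFOA and 44.5, 43.8 and 48.1 CPM in KO PFOA lungs, with each KO library above each WT library.

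On vehicle the sign of the genotype differences changed when library 122 was left out. In KO against WT vehicle lungs the median was -0.28 (0.05 over all genes), 8 members were lower and 1 higher at an unadjusted p under 0.05 (edgeR, 5.42% and 8.74% of all genes), and none passed the threshold (1.37% of all genes). The lowest were Dnaaf4 (-1.57), Rsph9 (-1.17) and Drc1 (-0.996) and the highest Cfap97d2 (0.83), Cfap221 (0.80) and Rsph10b (0.65). In KI against WT vehicle lungs the median was -0.21 (0.01 over all genes), 3 members were lower and 0 higher at an unadjusted p under 0.05 (edgeR, 3.96% and 5.33%), and none passed the threshold (0.857% of all genes). The lowest were Dnaaf4 (-1.11), Cfap73 (-0.92) and Dnah8 (-0.90) and the highest Rsph10b (0.54), Dnah17 (0.53) and Cfap77 (0.45). DESeq2 on the same genes called 0 members in both, against 1.95% of all genes for KO and 1.23% for KI. Without library 122 the medians were 0.39 and 0.48, and without library 107 -0.67 and -0.66, with 16 and 9 members past the threshold, all lower, against 1.89% and 1.74% of all genes in those fits.

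Dnah8 was among the members that did not vary with the rest. It was at 37.0 and 67.0 CPM in WT vehicle, 57.1, 52.5 and 54.6 in WT PFOA, 27.4, 23.4 and 32.6 in KI vehicle and 21.7, 36.5 and 31.0 CPM in KI PFOA lungs, and at 46.8, 36.023 and 37.5 in KO vehicle and 38.8, 15.8 and 65.8 CPM in KO PFOA lungs. The KI libraries lay below the WT libraries on either treatment, with log2 fold changes of -0.90 on vehicle and -0.88 on PFOA (adjusted p of 0.453 and 0.707, edgeR), and the KO libraries overlapped with both. Dividing by the other members raised the coefficient of variation of Dnah8 from 37.6% to 53.9%. It also rose for other members, such as Cfap97 (16.7% to 39.1%) and Tekt5 (33.2% to 49.6%).

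Dnah8 (ENSMUSG00000033826, chromosome 17, 30624354 to 30877365, plus strand) overlaps Glo1, the glyoxalase gene, on the opposite strand, and the library kit kept strand but whether the counting used it was not given. Glo1 was at 56.7 to 69.008 CPM in the 5 WT libraries and 28.1 to 38.0 CPM in the 12 KO and KI libraries, with no overlap. Its log2 fold changes against WT were between -0.95 and -0.89, with adjusted p of 0.00419 or 0.00472 on vehicle and 0.00199 or 9.12e-04 on PFOA (edgeR), under 2-fold. The part of Glo1 reads in the Dnah8 count was not tested. In all, 46 of the 77 members overlap another annotated gene, 42 of them on the opposite strand.

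**Figure D5:**
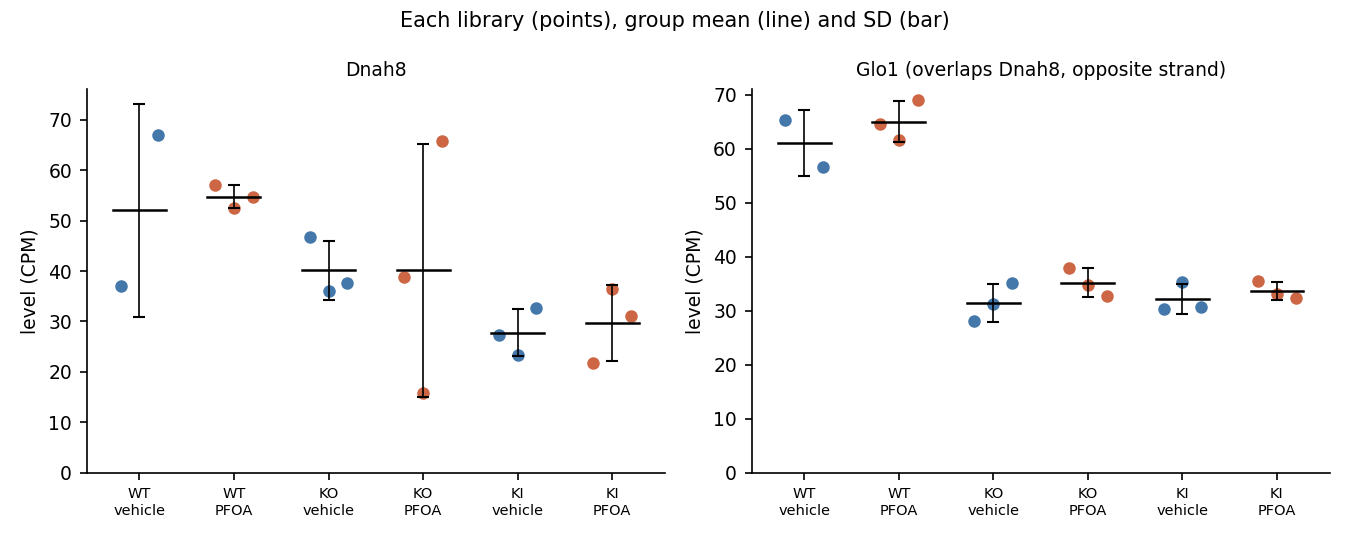
Level in CPM (y axis) of the outer arm chain Dnah8 (left) and of Glo1, which overlaps it on the opposite strand (right), in each library (points, blue vehicle and red PFOA) by group (x axis), with group means (lines) and SDs (bars, n = 2 or 3). The 5 WT libraries lie above all KO and KI libraries for Glo1, and above all KI libraries for Dnah8.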

How the data were processed

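RNA was measured in lungs of 17 mice in 6 groups with a stranded total RNA kit. Per the labels and the study's methods, the authors used STAR 2.6, within Partek, for alignment to the mm10 assembly and deposited estimated counts for each gene, raw and not normalized, and 27.8% of them are not whole (tolerance 0.001). The annotation release and the use of strand in counting are not given in the sources used here. One WT vehicle sample is not analysed here.

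The estimated counts were rounded, and genes with a total under 20 were left out of the tests. The quasi-likelihood test of edgeR 4.0.16 (R 4.3.3, TMM factors, all 6 groups in 1 fit) gave log2 fold changes and adjusted p-values. DESeq2 1.42.0 was the main alternative. A call needed an adjusted p under 0.2 and a fold over 2. The members, their roles and the gene lists were chosen with earlier results of these data known. Genes named with values were, in each comparison, the 3 highest and 3 lowest among members with a mean of at least 1 CPM, and 30 members fixed as representatives of the roles. Cfap36, Cfap206, Cfap410, Tekt3, Spag6 and Glo1 were named after their values were seen. Gene positions are those of the deposited table. The fit was tested on simulated data, drawn with the same spread for every gene. Those data held no library that stood apart in composition, so the test did not cover that case. Replicates of a group differed by more than sampling noise (smallest chi-square per degree of freedom 6.28). With 3 libraries against 2 or 3, an exact permutation test of a single gene cannot go below p = 0.1, so none was run. Library totals of 4116116 to 9237385 set a floor of 3 counts at 0.325 to 0.729 CPM, which covers counting error only.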

Additional observations from a re-analysis of the deposited data

How the results depend on the processing

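No paired analysis was possible because no groups share replicate numbers. The causes of the changes below were not tested. Of 10 comparisons, no alternative that kept all libraries called a member in 7. DESeq2 with its default filters called 10 members in WT lungs (0.496% of all genes it tested). In KI against WT on PFOA, DESeq2 called 1 member on the same genes (0.616% of all) and 1 with its default filters (0.714%). A fit of the 2 groups alone also called 1 there. The second number of the column name as a covariate called 1 in KO against WT on vehicle. Shares of all genes in these last fits are not given here. With the protein-coding share as a covariate the median log2 fold change was -0.372 in WT lungs, 0.182 for the difference of the KI from the WT response and 0.127 for KI against WT on vehicle. Without libraries 122 and 137 together these were -0.247, 0.072 and 0.477, and KO against WT on vehicle was 0.058. In that fit 6 members were called in KI against WT on PFOA, all higher, against 0.623% of all genes. Over the alternatives that leave out no single library, medians of the other comparisons kept their sign and ran from -0.57 to -0.08 in KO lungs, from -0.255 to -0.18 in KI lungs, from -0.548 to -0.178 over the 3 genotypes, from 0.062 to 0.374 for KO and from 0.378 to 0.652 for KI against WT on PFOA, and from 0.14 to 0.512 for the difference of the KO from the WT response.

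Leaving out 1 library at a time, the median ran from -1.412 to -0.245 in WT lungs, from -0.265 to 0.891 for the KO and from 0.072 to 1.175 for the KI difference in response, from -0.668 to 0.39 for KO and from -0.658 to 0.481 for KI against WT on vehicle. Members called ran from 0 to 53 in WT lungs, 0 to 3 and 0 to 13 for the KO and KI differences, 0 to 16 and 0 to 9 for KO and KI against WT on vehicle, and 0 to 4 for KI against WT on PFOA. The most calls came without WT vehicle library 107, except in KI against WT on PFOA, where they came without KO vehicle library 137.

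None of the named genes was called in the main fit, though some were called in alternative fits, as given above. Values of named genes turned in sign as follows. With the protein-coding share as a covariate Dnaaf3 was at 0.433 and Tekt5 at 0.404 in WT lungs and Cfap97d2 at 0.16 in KO lungs. With the second number of the column name as a covariate Dnah8 was at -0.099 in WT lungs and Cfap221 at 0.512 for the KO difference. Without libraries 122 and 137 Dnaaf3 was at 0.454, Rsph9 at 0.287 and Tekt5 at 0.695 in WT lungs, Cfap97d2 at 0.387 in KO lungs, Dnah14 at 0.369 for the KO and Dnah17 at 0.072 for the KI difference, and Rsph9 at 0.184 in KO and Cfap73 at 0.579 in KI against WT on vehicle.
Leaving out 1 library at a time gave ranges in WT lungs of -0.711 to 0.456 for Dnaaf3, -1.779 to 0.289 for Rsph9, -0.288 to 0.57 for Dnah8 and -0.552 to 0.697 for Tekt5. They were -1.368 to 0.384 for Cfap97d2 and -0.147 to 0.684 for Dnah17 in KO lungs, and -0.083 to 0.818 for Cfap99 and -0.197 to 0.515 for Cfap73 in KI lungs. For the KO difference they were -1.769 to 0.682 for Cfap97d2 and -0.653 to 0.272 for Dnah14, and for the KI difference -0.563 to 0.072 for Dnah17, -0.385 to 0.084 for Dnaaf5 and -0.29 to 0.2 for Dnaaf2. For KO against WT on vehicle they were -1.866 to 0.207 for Rsph9, -1.601 to 0.061 for Drc1, -0.42 to 2.031 for Cfap97d2 and -0.007 to 0.99 for Rsph10b, for KI against WT on vehicle -1.649 to 0.579 for Cfap73, and for KI against WT on PFOA -0.509 to 0.142 for Tekt5.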
